A study of Mus musculus with 42 samples.

Results

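Differentiation of C2C12 cells was examined with 4 libraries of total RNA, 2 of proliferating myoblasts (MB) and 2 of myotubes (MT), out of 42 libraries in the series, of which 38 were made by 3′READS. They were taken by their labels as C2C12 total RNA, numbered 2 and 3 in each state. C2C12 is an established mouse myoblast line, given in the labels as strain C57BL/6. MB were kept growing in medium with fetal bovine serum, and MT were obtained by moving confluent cells to medium with horse serum. No cell received arsenite, and the number of days of differentiation is not given in the sources used here. The source label reads myoblast for all 4 libraries, so the state of each was taken from its title. An MT culture is a mixture of fused and unfused cells, and in such bulk RNA more cells of a type and more RNA per cell cannot be told apart. Another 4 libraries of untreated C2C12 cells, with cytoplasmic RNA of MB and MT harvested at 0 h and 4 h, served as a separate comparison.

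In rich serum, myoblasts divide and express the myogenic factors Myf5 and Myod1, while Id proteins hold back the E protein partners of these factors. When serum is withdrawn the cells leave the cell cycle, switch on Myog and the Mef2 factors, fuse and build sarcomeres. Many genes also carry more than one polyadenylation site (PAS) in the last exon, so that a transcript ends at a proximal site (pPAS) or a distal site (dPAS), and the stretch between them is the alternative 3′UTR (aUTR).

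Each 3′READS read marks the 3′ end of one polyadenylated RNA, so that the reads of all PASs of a gene, summed, measure its expression, with no dependence on transcript length. Levels below are reads per 1000000 gene reads after median-ratio normalization (RPM). The MB libraries held 3243633 and 4057012 PAS reads, and the MT libraries 3856482 and 4429624. Of these reads, 3.34 to 4.63% were mitochondrial and left out. Of the reads on the chromosomes that were kept, between 94.68 and 94.87% were assigned to genes. A cluster with fewer than 5 reads in a library is not listed in it, so a level of 0 means that nothing was listed. For genes listed in one state only, the fold is an approximate lower bound. It is taken against 4 unlisted reads per library at each of the gene's sites that are listed in total RNA. Reads at further sites and counting error are not covered by it. The study describes the libraries of this contrast as biological replicates, while the labels do not say what separates them, and edgeR p-values measure the spread between these libraries. P-values from reads of 1 library against another cover counting error only.

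The labels were checked against markers of both states. Of the myotube markers, Myog, Tmem8c (the fusion protein myomaker), Myh3 (embryonic myosin heavy chain), Ckm (muscle creatine kinase) and Tnnt3 (fast troponin T) were listed in neither MB library and in both MT libraries. Acta1 (skeletal α-actin) rose from 81.6 and 77.2 RPM in MB to 6189.9 and 6235 in MT, and Des (desmin) from 138 and 124 to 573 and 729. Of the myoblast markers, Id3, Mki67 and Ccnb1 fell, Myf5 did not pass the test and Myod1 rose. The latter goes against its place among the myoblast markers.

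Markers of other cell types were compared in the same libraries. In the adipocyte list, 2 of 9 genes were listed, with a summed level of 0 to 2.87 RPM, and Adipoq, Fabp4 and Plin1 were at 0. In the endothelial and blood list, 2 of 9 genes were listed, with 8.67 to 8.69 in MB and 3.64 to 4.43 in MT, and Pecam1, Cdh5 and Ptprc were at 0. Sox9 was the one chondrocyte marker of 6 that was listed. Of the osteoblast list, Spp1 (osteopontin) and Runx2 were listed, and the sum fell from 7796 and 8139.5 RPM in MB to 2872 and 2646 in MT, nearly all of it Spp1, while Sp7 and Bglap were at 0. The smooth muscle list had 5 of 7 genes and a sum of 6124 to 6665 in MB and 3785 to 4237 in MT, mostly Acta2 (smooth muscle α-actin), with Myh11 and Myocd at 0. Of the 10 markers of quiescent satellite cells 7 were listed, with a sum of 452 to 455 in MB and 325 to 327 in MT, and Pax7 was at 0. The 7 did not move together: 3 rose, 2 fell and 2 did not pass, beside 32.6% higher and 29.2% lower among all tested genes. Cd34, the largest part of the sum in MB, went from 237 and 252 to 109 and 114. Spry1 rose from 0 and 3.32 to 45.5 and 48.3. The part of other cell types in the results was not tested.

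Most expressed genes differed between the states. Of 10449 genes tested, 3407 (32.6%) were higher and 3055 (29.2%) were lower in MT at an adjusted p under 0.05 (edgeR quasi-likelihood test, n = 2 per state). At least 2-fold differences were reached by 1948 of the higher and 1591 of the lower genes. There were 425 tested genes that were listed in MT only and 122 that were listed in MB only. The median log2 change of all tested genes was 0.04. Replicates were alike, with a Pearson r of 0.984 between the MB libraries and 0.985 between the MT libraries across genes, against 0.735 between MB and MT of number 2. When libraries were scaled to their total instead, the log2 changes shifted by a median of -0.15, and 44.5% rather than 52.7% of the called genes were higher. Changes below are relative to the median-ratio scaling.

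**Figure D1:**
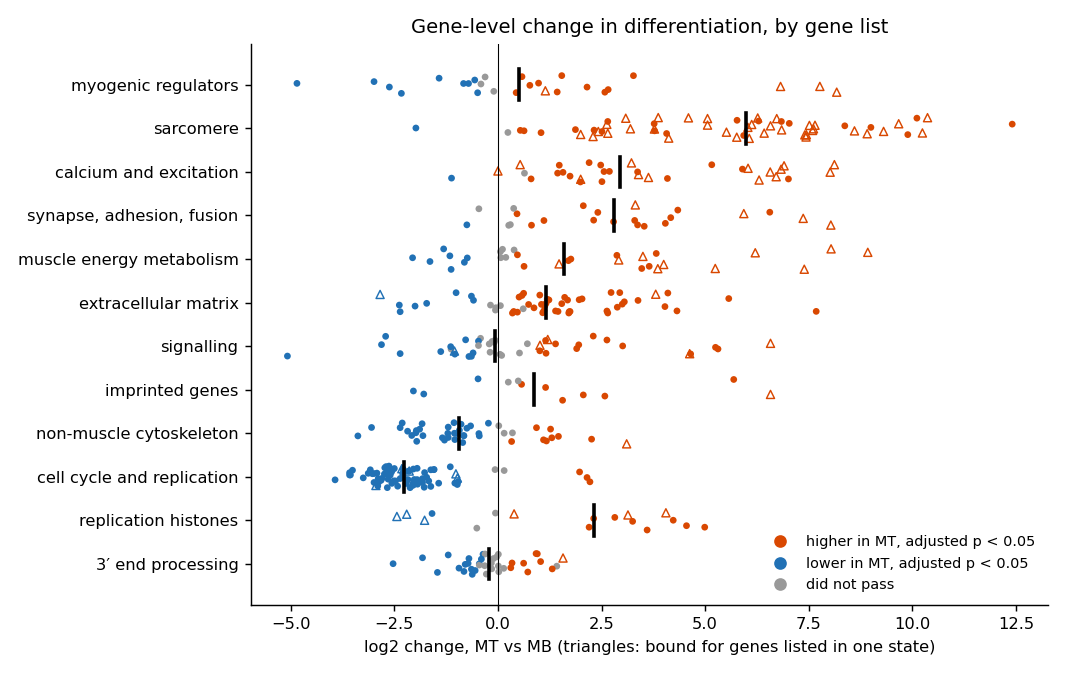
Log2 change of each tested gene (points) in MT vs MB, total RNA, by gene list (rows), on the x axis. Points are coloured by the edgeR test, triangles are lower bounds for genes listed in one state, and black bars are medians with those bounds. Nearly all points of the sarcomere and calcium lists lie to the right of 0 and nearly all points of the cell cycle list to the left.

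By fitted change, the 10 genes that rose the most among those with an average log2 level of at least 5 were Mybph, Actc1, Myh3, Tmem8c, Tnnt3, Myog, Tnnc2, Tnni1, Synpo2l and Casq2, all of them listed in MT only. Mybph, a myosin-binding protein, had 4266 and 4123 RPM in MT, at least 1212-fold above MB. Actc1, the cardiac α-actin that is also made by developing skeletal muscle, had 2164 and 2217, at least 633-fold. Tnnt3 had 1565 and 1480.2, at least 1320-fold, and Synpo2l, an actin-binding protein of the sarcomere, had 889.6 and 990.4, at least 815-fold. For such genes the fitted log2 change depends on the prior count and the bound is the better guide.

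Among genes with an average log2 level of at least 5, the 10 that fell the most were 1700012B09Rik, Car8, Aqp1, Fosl1, Id3, Hmga2, Apln, Fam83d, Gnb4 and 2810417H13Rik. Aqp1, a water channel, went from 394 and 430.3 RPM in MB to 10.3 and 12 in MT, a log2 change of -5.2 ± 0.15 (SE). Hmga2, a chromatin protein of growing embryonic cells, went from 354 and 403 to 13.6 and 12.8 (-4.84 ± 0.15). Fosl1, an AP-1 subunit that answers growth factors, went from 157 and 149 to 5.15 and 3.91 (-5.08 ± 0.19). The MT libraries lay below both MB libraries for each of these 3 genes, which follows from their choice by the size of the change.

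Among the myogenic regulators, 26 of 35 listed genes could be tested, of which 14 rose, 9 fell and 3 did not pass, beside 32.6% higher and 29.2% lower among all tested genes. The median log2 change was 0.51. Myog, the factor that starts terminal differentiation, was at 0 in both MB libraries and at 1271 and 1399 RPM in MT, at least 289-fold higher (adjusted p = 6e-16). Mef2c, a partner of Myog, was likewise at 0 in MB and at 685 and 617 in MT, at least 113-fold higher. Mef2a was already at 95.1 and 91.5 in MB and reached 607 and 569 in MT, a log2 change of 2.66 ± 0.1 (adjusted p = 1.06e-12). Mef2d went from 45.3 and 44.5 to 86.1 and 67.3, with a log2 change of 0.77 ± 0.15. Smyd1, a methyltransferase needed for myofibril assembly, was listed in MT only, at 252 and 250.1. Hdac9 was also listed in MT only, but at 5.76 and 4.43 RPM, at least 2.21-fold above MB.

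Of the early factors, Myod1 rose and Myf5 did not pass the test. Myod1, which commits cells to the muscle lineage, had 10.6 and 8.94 RPM in MB and 44.9 and 41.7 in MT, a log2 change of 2.15 ± 0.21 (adjusted p = 1.01e-07). Myf5 had 20.2 and 26.1 in MB and 17.3 and 17.7 in MT, and did not pass the test (-0.41 ± 0.22, adjusted p = 0.107). Both MT libraries were above both MB libraries for Myod1. The 3 Id genes of the list fell. Id3 went from 1716 and 1373 RPM in MB to 54.6 and 52.4 in MT (log2 change -4.85 ± 0.13), Id2 from 173 and 137 to 20.9 and 18 (-2.99 ± 0.16), and Id1 from 129.8 and 101 to 48.8 and 37.6 (-1.42 ± 0.16). Twist2, a repressor of myogenic factors, fell by 2.62 ± 0.2 on the log2 scale. Of the E proteins that Id proteins bind, Tcf3 fell slightly (-0.71 ± 0.12), whereas Tcf4 (0.98 ± 0.11) and Tcf12 (0.44 ± 0.11) rose.

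**Figure D2:**
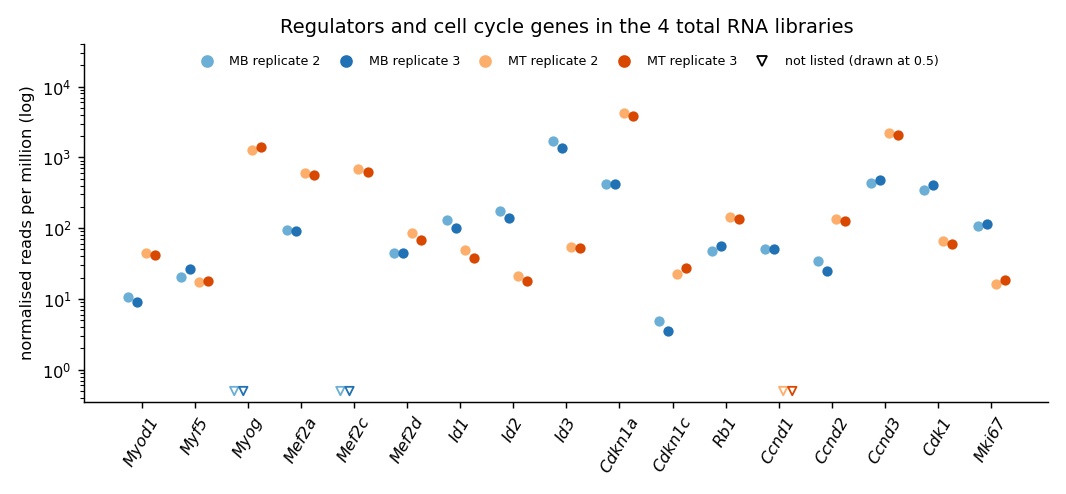
Normalized RPM (log axis) of myogenic regulators and cell cycle genes in the 2 MB and 2 MT libraries of total RNA, 1 point per library. Triangles at the bottom mark libraries in which the gene was not listed: MB for Myog and Mef2c, MT for Ccnd1. The replicate points of a state lie close together beside the gap between states, except for Myf5.

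Genes of the sarcomere rose almost without exception. Of 58 tested members of this list, 56 rose, 1 fell and 1 did not pass, against 32.6% of all tested genes that rose. In sum, the list went from 5813 and 6366 RPM in MB to 65939 and 64299 in MT. A total of 36 of the 58 were listed in MT only, and with these at their bound the median log2 change was 5.98. Mylpf, the fast regulatory light chain of myosin, was the most abundant, at 2.25 and 2.3 in MB and 13369 and 11805 in MT (12.41 ± 0.17). Tnnc1, the slow and cardiac troponin C, went from 22.2 and 23.5 to 7816 and 7359 (8.37 ± 0.13). Myl4, the embryonic light chain, went from 2.57 and 2.04 to 2554 and 2553 (10.11 ± 0.16). Giant proteins of the sarcomere were at 0 in MB as well, with Ttn (titin) at 445 and 448 and Neb (nebulin) at 196 and 195 RPM in MT.

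The 5 sarcomeric myosin heavy chain genes named here, all at 0 in MB, could be ordered by their 3′ end reads in MT, whereas the non-muscle heavy chain Myh9 had 1583 and 1498 RPM in MB and 1123 and 1125 in MT. The embryonic Myh3 came first with 1832 and 1760.1 RPM, ahead of the adult fast Myh1 with 832 and 858. The slow Myh7 followed with 192 and 209. Myh4, with 79.7 and 81.1, and the perinatal Myh8, with 66.1 and 84.8, had overlapping replicate values and their order is not resolved. Myh1 and Myh7 did not overlap with their neighbours in this order.

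Not every contractile gene was new in MT. Tnnt2, the cardiac troponin T of immature muscle, had 137 and 105 RPM in MB and 1617 and 1703 in MT (3.78 ± 0.12). Tropomyosin 1 changed little at the gene level, from 1596 and 1653 to 2393 and 2340.5 (log2 change of Tpm1 0.54 ± 0.08), although its isoforms were exchanged, as shown further on. Fhl3, a LIM protein, was the one member that fell, from 736 and 733 to 184 and 189 (-1.98 ± 0.1). Fhl1 did not pass (0.24 ± 0.12, adjusted p = 0.0895).

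In the list of excitation and calcium handling, 30 of 32 tested genes rose, 1 fell (Asph, -1.12 ± 0.12) and 1 did not pass, beside 32.6% higher among all tested genes. The calcium channel subunit Cacna1s and the release channel Ryr1, which together couple the membrane potential to calcium release, were listed in MT only, at 335 and 306 and at 186 and 178 RPM. Casq2, a calcium store protein, had 876 and 821, Hrc 306 and 292, and Cav3, the caveolin of muscle, 299 and 229. The pump of slow muscle and heart, Atp2a2, was present in MB and rose by 2.56 ± 0.11 on the log2 scale, summed over its PASs. At its most abundant last exon PAS, reads went from 108 and 178 to 1498 and 1654. At its most abundant PAS upstream of the last exon, reads were 109 and 148 in MB and 93 and 141 in MT. The fast muscle pump Atp2a1 was listed in MT only, at 57 and 50.6 RPM.

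Genes of cell fusion, the neuromuscular synapse and adhesion receptors rose in 18 of 23 tested cases, 1 fell (Myof, -0.75 ± 0.13) and 4 did not pass, beside 32.6% higher and 29.2% lower among all tested genes, with a median log2 change of 2.79. The 2 membrane proteins that drive fusion were both listed in MT only. Tmem8c (myomaker) had 1503 and 1545 RPM, and Gm7325 (the micropeptide myomixer) had 619 and 590.3, at least 165-fold and 262-fold above MB. Of the acetylcholine receptor subunits, the fetal Chrng was listed in MT only at 474 and 513, Chrnd went from 2.57 and 3.32 to 284 and 287, and Chrna1 from 48.8 and 44 to 872 and 797. Colq, the collagen tail of acetylcholinesterase, had 13 and 9.91 in MT. The laminin receptor subunit Itga7 rose by 3.3 ± 0.1 on the log2 scale.

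Of 30 tested genes of muscle energy metabolism 18 rose, 7 fell and 5 did not pass, and 32.6% of all tested genes were higher and 29.2% lower. Some isoforms particular to muscle were listed in MT only, such as Ckm with 579 and 581 RPM, Mb (myoglobin) with 562 and 558, Cox6a2 with 611 and 604 and Pygm (muscle glycogen phosphorylase) with 89.1 and 81.6. Pfkm, muscle phosphofructokinase, was present in MB and rose from 188 and 212 to 1470.2 and 1464 (2.87 ± 0.1), and Eno3, muscle enolase, from 1734 and 1629 to 2499 and 2689.7 (0.63 ± 0.09). Genes that fell included the widely used glycolytic enzymes Ldha, from 4441 and 5660.2 to 2146 and 2389 (-1.16 ± 0.11), and Pkm2, from 404 and 339 to 152 and 147 (-1.31 ± 0.11), and the ADP/ATP carrier Slc25a4 (-1.64 ± 0.11). Several widely used genes with near-identical copies in the genome are barely listed, such as Gapdh with 0 reads in both MB libraries and 5 and 20 in MT. The reads of such genes are no measure of their level.

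Cell cycle and replication genes moved the other way. Of 80 tested genes 75 fell, 3 rose and 2 did not pass, against 29.2% of all tested genes that fell, and the median log2 change was -2.33, or -2.25 with genes listed in MB only at their bound. The sum of the list went from 11783 and 11896 RPM to 5031 and 4843. Cdk1, the kinase of mitotic entry, went from 342 and 409 to 66.7 and 60 (-2.57 ± 0.12). Cdc20, an activator of the anaphase-promoting complex, went from 273 and 247 to 24.3 and 21.4 (-3.51 ± 0.14), and the replicative helicase subunit Mcm5 from 218 and 204 to 26.4 and 23.5 (-3.08 ± 0.13). For these 3 genes the MT libraries remained above 20 RPM.

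Ccnd1, Orc1, Uhrf1 and Tk1, the 4 members with the largest fitted decrease, were listed in MB only, at levels at which the bound is low. Ccnd1 (cyclin D1), for example, had 51.1 and 50.3 RPM over 9 sites in MB, at least 4.99-fold more than in MT, and Orc1 had 17 and 22.7, at least 4.41-fold more. Uhrf1 was at least 1.97-fold and Tk1 at least 7.7-fold higher in MB, all in total RNA. In cytoplasmic RNA Tk1 and Ccnd1 were listed in MT as well. Their cytoplasmic log2 changes were -1.62 (edgeR, adjusted p = 0.101) and -2.48 (adjusted p = 0.00608). The 3 members that rose were the other D-type cyclins and an E2F. Ccnd3 went from 441 and 474 to 2200.3 and 2058 (2.22 ± 0.09), Ccnd2 from 34 and 25 to 134 and 127 (2.15 ± 0.15) and E2f2 from 47.9 and 43.4 to 193 and 165 (1.97 ± 0.13). Of the genes of cell cycle exit kept in the regulator list, Cdkn1a (p21) went from 417 and 424 to 4232 and 3869 (3.27 ± 0.1), Cdkn1c (p57) from 4.82 and 3.58 to 22.4 and 27.1 (2.58 ± 0.29), and Rb1, the retinoblastoma protein, from 47.9 and 55.4 to 143 and 136 (1.43 ± 0.13).

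Replication-dependent histone genes, whose main transcripts carry no poly(A) tail, gave few 3′ end reads, 115 and 121 RPM in MB and 818 and 791 in MT over 34 genes. Of 17 that could be tested 11 rose and 4 fell, beside 32.6% and 29.2% of all tested genes. Hist1h1c, a linker histone, rose from 40.8 and 30.9 to 441 and 423 (3.6 ± 0.13), whereas Hist1h3c was listed in MB only, at 6.1 and 6.13. Since only polyadenylated histone RNA is captured, these values are not the level of histone mRNA.

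The extracellular matrix list had 40 of 53 tested genes higher, 8 lower and 5 that did not pass, beside 32.6% higher and 29.2% lower among all tested genes. Its sum went from 15074 and 15145 to 41481 and 44119 RPM. Col3a1, a fibrillar collagen, went from 975 and 901 to 6904 and 7442 (2.94 ± 0.09) and Fn1 (fibronectin) from 749 and 897 to 5255 and 6883 (2.88 ± 0.12). Postn (periostin) went from 1.93 and 6.13 to 879.6 and 881 (7.68 ± 0.2), while Lama4, a laminin chain, and Fmod (fibromodulin) reached 59.7 and 51.6 and 33.4 and 31. Among the genes that fell were Ctgf (-2.38 ± 0.25) and Cyr61 (-2 ± 0.2).

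In the signalling list, 16 of 41 tested genes rose and 13 fell, with a median log2 change of -0.07, shares near the 32.6% and 29.2% of all tested genes. The growth factor Igf2 was listed in MT only, at 195 and 245 RPM, at least 95.5-fold above MB, and Igfbp5, which binds it, rose from 12.8 and 14.3 to 503 and 585 (5.31 ± 0.15). Erbb3, a neuregulin receptor, was listed in MT only at 59.1 and 55. Met, the receptor of hepatocyte growth factor, fell from 161 and 150.2 to 20 and 24 (-2.81 ± 0.15), and its ligand Hgf fell by 2.36 ± 0.39 on the log2 scale. H19, the imprinted noncoding RNA next to Igf2, went from 99.6 and 77.4 to 4380.5 and 4697 (5.69 ± 0.13). Of the 12 imprinted genes tested, 7 rose and 3 fell, where 32.6% and 29.2% of all tested genes did.

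Genes of the non-muscle cytoskeleton fell in 31 of 43 tested cases and rose in 9, beside 29.2% lower and 32.6% higher among all tested genes. Actb (cytoplasmic β-actin) went from 12191 and 10241 RPM to 2257 and 2123 (-2.36 ± 0.1), Vim (vimentin) from 7736 and 7866 to 1740 and 1936 (-2.08 ± 0.09) and Tubb5 from 5883 and 5989.5 to 1516 and 1510 (-1.97 ± 0.09). Lmnb1, a nuclear lamin of dividing cells, fell by 3.38 ± 0.15 and Cnn1, a calponin, by 3.05 ± 0.14 on the log2 scale. In the other direction, Flnc, the filamin of muscle, went from 492 and 485 to 2426 and 2249.7 (2.26 ± 0.09), and Cap2 was listed in MT only.

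The RNA 3′ end processing list moved in both directions, with 9 of 38 genes higher, 15 lower and 14 that did not pass, and a median log2 change of -0.22, not far from the 32.6% higher and 29.2% lower of all tested genes. Of the cleavage factor I subunits, Nudt21 (8.67 and 7.41 in MB, 1.82 and 2.61 in MT) and Cpsf6 (234 and 244 in MB, 126 and 123 in MT) fell, and Cstf2 fell by 0.7 ± 0.17 on the log2 scale. Among the RNA-binding proteins in the list, Mbnl3 (-2.53 ± 0.25), Ptbp1 (-1.46 ± 0.14) and Srsf3 (-1.2 ± 0.12) fell, whereas Celf2 (1.31 ± 0.15) and Rbfox2 (1.03 ± 0.15) rose. Rbfox1 was listed in MT only, at 6.97 and 13.6. Pabpn1, the nuclear poly(A)-binding protein, had 24.1 and 29.4 in MB and 20.6 and 16.4 in MT, with an adjusted p of 0.0324.

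The same contrast was then taken in cytoplasmic RNA, in libraries that share no sample with those of total RNA. Here 1367 of 8899 genes (15.4%) were higher and 998 (11.2%) lower in MT. Of 2902 genes that were higher in total RNA and were tested in both, 1127 (38.8%) were also called higher in the cytoplasm and 27 lower. Of 2714 that were lower, 833 (30.7%) were called lower and 33 higher. Conversely, 83.9% of the 1343 genes called higher and 83.7% of the 995 called lower in the cytoplasm had the same call in total RNA. Across 8411 genes listed in both states and both fractions, the 2 log2 changes had a Pearson r of 0.72, a description over genes, which are not independent replicates. These libraries were less deep, with 1649925 to 2814299 PAS reads, the 2 libraries of a state were harvested at different times, and the counts of calls rested on single libraries. Without the 0 h MB library there were 2409 higher and 1626 lower genes, whereas without the 0 h MT library there were 622 and 322, and without the 4 h MT library there were 759 and 440.

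By list, 54 of 57 sarcomere genes were higher in cytoplasmic RNA as well, as were 30 of 31 calcium genes and 35 of 51 matrix genes, and 59 of 72 cell cycle genes were lower. Other lists had fewer calls of one direction there than in total RNA. So had all tested genes, with 15.4% against 32.6% higher and 11.2% against 29.2% lower. Of the 3′ end processing list 0 of 34 genes were higher by edgeR and by DESeq2 (4 at an unadjusted p under 0.05), against 9 of 38 in total RNA, and 13 were lower. Of the energy list 0 of 25 and of the matrix list 0 of 51 genes were lower by edgeR, each with 1 gene at an unadjusted p under 0.05 and 1 by DESeq2, against 7 and 8 in total RNA. Of the non-muscle cytoskeleton 14 of 42 genes were lower, against 31 of 43. Differences between the fractions were not tested. Ankrd1, a stretch-responsive repeat protein, rose by 2.51 ± 0.13 in total RNA and had a log2 change of 0.09 in the cytoplasm. Ldha, which fell in total RNA, had a cytoplasmic log2 change of 0.65 ± 0.29 (adjusted p = 0.139), and Cyr61 one of 1.12 ± 0.43 (adjusted p = 0.0951). These 3 genes were chosen after their values were seen.

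**Figure D3:**
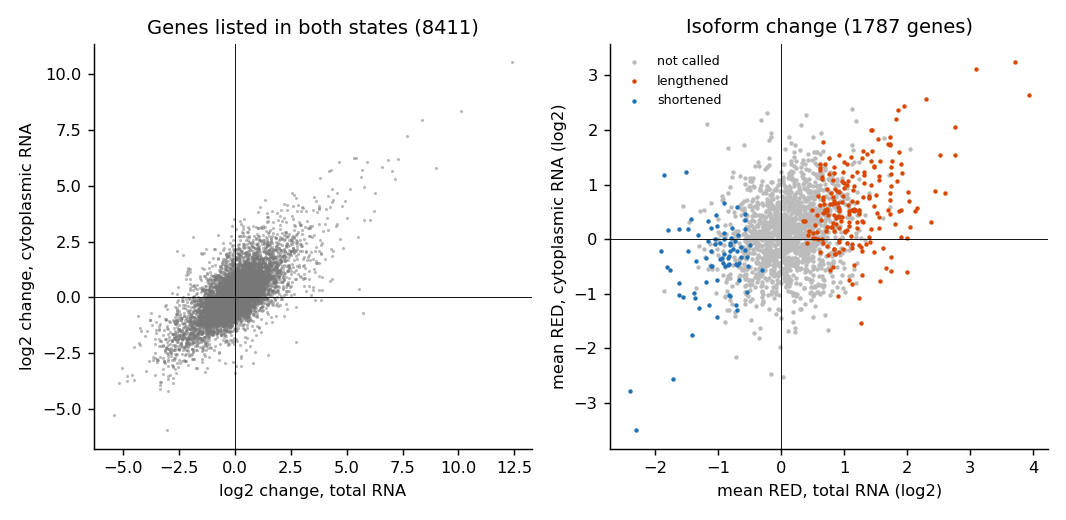
Left, log2 change in MT vs MB of genes in cytoplasmic RNA (y axis) against total RNA (x axis), for 8411 genes listed in both states. Right, mean RED (log2) in cytoplasmic against total RNA for 1787 genes, coloured by the call in total RNA. The points rise from lower left to upper right in both panels, with an r of 0.72 for gene-level and 0.37 for isoform changes.

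Isoform switches were examined in 3195 genes with more than 5 reads at both the pPAS and the dPAS in each library, the 2 most abundant last exon PASs of a gene. A gene was called when its relative abundance of the dPAS isoform changed by more than 5 points with a P under 0.05 by Fisher's exact test, and did so the same way in both same-numbered pairs. There were 294 genes (9.2%) with a lengthened and 103 (3.22%) with a shortened 3′UTR in MT, 2.85 lengthened per shortened gene. Within single pairs, 532 and 549 genes were lengthened and 232 and 213 shortened, and 6 genes were called in opposite directions. Between the 2 libraries of one state the same rule called 162 and 151 genes with a higher and a lower dPAS share in MB, and 107 and 112 in MT, so that a call in 1 pair can arise without a change of state. A model over all 4 libraries (edgeR, isoform by group) called 581 genes (18.2%), 417 towards the dPAS and 164 towards the pPAS. Among them were 273 of the 294 and 95 of the 103 genes. By DESeq2 it called 181 genes. Over genes with at least 10 reads of each isoform summed, edgeR called 0, with 1138 at an unadjusted p under 0.05. Without MT library 2 or 3 the model called 311 or 302 genes.

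The size of the shift was summarized as the relative expression difference (RED), the log2 ratio of dPAS to pPAS reads in MT minus that in MB. The median RED was 0.185 in both pairs and 0.183 for their mean. Between replicates of the same state the median RED was 0.012 in MB and 0.006 in MT. In the 2 pairs, 59.2% and 60.9% of genes had a RED above 0. Across genes, the REDs of the 2 pairs had a Pearson r of 0.56. RED and the log2 change of the gene had an r of 0.02 over the 3195 genes. Of the 294 lengthened genes, 116 were higher and 90 lower at the gene level, against 1049 and 937 of all 3195. Among the 103 shortened genes there were 33 higher and 32 lower genes.

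In lengthened genes, reads at the pPAS changed by a median of -0.58 and those at the dPAS by 0.66 on the log2 scale. For shortened genes the medians were 0.59 and -0.56. Genes were called on the share of the dPAS, so medians of opposite sign follow in part from the calls. Single genes differed, with pPAS and dPAS changes of 0.12 and 2.84 in Cnot6l and -2.42 and 0.18 in Oxsr1. The aUTR of lengthened genes had a median length of 1701 nt, compared with 681 nt in shortened genes and 504 nt in genes not called. When the genes were ordered by aUTR length and divided into 5 bins of 639, the median RED was 0.109, 0.065 and 0.063 in the bins up to 888 nt, then 0.266 for 888 to 1773 nt and 0.561 above that. The share of lengthened genes rose from 2.35% in the shortest to 21.9% in the longest bin, while that of shortened genes was 1.1% to 5.01% without such an order. In the longest bin the median RED between replicates was 0.048 in MB and -0.051 in MT.

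**Figure D4:**
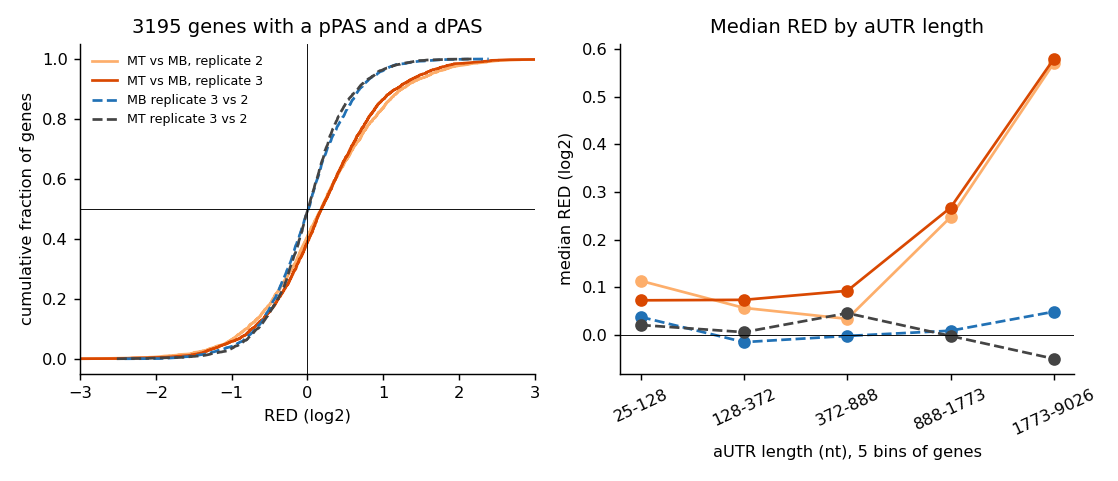
Left, cumulative fraction of the 3195 genes by RED (log2, x axis) for MT vs MB in each same-numbered pair (solid) and for replicates of one state (dashed). Right, median RED (log2) in 5 bins of aUTR length (nt). The solid curves lie to the right of the dashed ones above 0, and the medians of both pairs rise above 888 nt to 0.571 and 0.58 in the longest bin, whereas replicate medians stay near 0.

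Single switches can be read from the PASs themselves. The 30 bases that end at the PAS are shown for switches described next, on the transcript strand of NCBIM37 (mm9), with the poly(A) signal AATAAA or ATTAAA in capitals where it is found. They are shown so that the sites that gain and lose reads can be compared.
Fam49b pPAS, chr15:63762497-63762526, minus strand: taaAATAAAaatcagctttcctttttctaa
Fam49b dPAS, chr15:63760649-63760678, minus strand: gtgttcataAATAAAattttattgaacata
Rpl22 pPAS, chr4:151706560-151706589, plus strand: ttaattcataAATAAAatttaggaacaaaa
Rpl22 dPAS, chr4:151708147-151708176, plus strand: cactttttgtATTAAAgtggctgacacatg
Aars pPAS, chr8:113579440-113579469, plus strand: tgcagaaAATAAAaaggaccatgtgcaata
Aars dPAS, chr8:113581476-113581505, plus strand: aaaacataaaaactattttatgactggaaa
Tpm1 upstream PAS, chr9:66875781-66875810, minus strand: cgcccagtgtaaAATAAAcactgtacgcta
Tpm1 upstream PAS, chr9:66875699-66875728, minus strand: ctcAATAAAactacacttctgcttcgtgca

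Of the 8 lengthened genes with the largest mean RED, Gins1, Fam49b, Qk, Cnot6l, Hip1, Ccnt2, Cds2 and Oxsr1, each had an aUTR of 1848 to 4428 nt. Fam49b, an actin regulator, had a dPAS share of 3.4% and 7.44% in MB and 39.8% and 42.2% in MT, a RED of 3.71 ± 0.74 (SD of 2 pairs). Its pPAS reads went from 766 and 709 to 200 and 190, and its dPAS reads from 27 and 57 to 132 and 139. In cytoplasmic RNA the Fam49b share went from 13% and 4.51% to 46.4% and 42%. Both MT libraries were thus well above both MB libraries in either fraction, although the gene was chosen by its RED in total RNA.

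Gins1, a subunit of the replicative helicase, had a dPAS 3031 nt beyond the pPAS and past the annotated end of the gene. Its pPAS reads fell from 175 and 165 to 36 and 37, whereas its dPAS reads rose from 308 and 468 to 1032 and 1497. The gene therefore rose when its PASs were summed (log2 change 1.17), unlike most replication genes, and whether the dPAS belongs to the Gins1 transcript was not tested. For Qk, an RNA-binding protein of muscle and glia, the dPAS share went from 21.3% and 40.3% to 76.3% and 80.5%. This dPAS too lies past the annotated end, and with sites inside the annotation alone a different pair is compared and the direction turns (RED -1.78). Cnot6l, a subunit of the CCR4-NOT deadenylase, went from 46.7% and 37.3% to 81.8% and 84.2%, and the cyclin Ccnt2 from 28.3% and 42.5% to 80.5% and 75.8%.

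Of the 8 shortened genes with the most negative RED, Aars, Matr3, Rlim, Fem1a, Dnajb9, C230096C10Rik, Capzb and 2410131K14Rik, Aars (alanyl-tRNA synthetase) came first. Its dPAS share went from 27.1% and 16.7% in MB to 6.36% and 3.82% in MT (RED -2.4 ± 0.08), and its pPAS reads from 533 and 1024 to 1517 and 2189. Matr3, a nuclear matrix protein, went from 44% and 45.1% to 12.1% and 16%. Dnajb9, a chaperone of the endoplasmic reticulum, went from 78.6% and 75.4% to 41.4% and 49.2%. Capzb, a capping protein of actin filaments, went from 18.7% and 31% to 7.41% and 8.42%, with 8 dPAS reads in each MT library. In 2410131K14Rik the cytoplasmic REDs were 1.05 and 1.29, opposite to those of total RNA, and in Capzb they were -0.9 and 0.48. Those of Aars (-2.25 and -3.3) and Matr3 (-4.25 and -2.75) were below 0 at both harvest times.

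Among 22 genes with a pair in the list chosen for their isoforms, 5 were called lengthened in both pairs, none was called shortened, and 9 passed the model over all 4 libraries. Rpl22, a ribosomal protein, was the clearest, with a dPAS share of 20.6% and 23.5% in MB and 59.8% and 63.8% in MT (RED 2.52 in both pairs, adjusted p = 6.78e-16). The Rpl22 dPAS reads went from 249 and 317 to 1144 and 1204 and its pPAS reads from 958 and 1033 to 768 and 683, log2 changes of 2.04 and -0.48. Mef2a went from 50% and 44.8% to 64.1% and 61.5% over an aUTR of 148 nt, and Rbfox2 from 51.7% and 53.3% to 69.2% and 79.9%. Fxr1, a paralogue of the fragile X protein, went from 16.7% and 14.6% to 24.9% and 20.6%, at a dPAS past the annotated end. In cytoplasmic RNA the Fxr1 shares overlapped, at 12.3% and 16.6% in MB and 10.9% and 17.3% in MT. The cytoplasmic REDs of Rpl22 (1.69 and 1.39) and Mef2a (0.92 and 0.8) were above 0.

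Other genes of this list were not called in both pairs. Timp2, an inhibitor of matrix proteases, had 76.9% and 81.3% in MB and 87.1% and 85.1% in MT. Nmt1 (N-myristoyltransferase) had 76.3% and 82.9% in MB and 80.1% and 84.5% in MT, so that the states overlapped (adjusted p = 0.666). In cytoplasmic RNA the Nmt1 shares were 32.8% and 13.5% in MB and 44.9% and 40.5% in MT, without overlap (RED 0.74 and 2.12). The shares of Ccnd2 were 42.6% and 44.6% in MB and 43.9% and 44.2% in MT, although both of its isoforms rose, by 2.17 at the pPAS and 2.2 at the dPAS on the log2 scale. Likewise for Tpm4, a tropomyosin of the non-muscle cytoskeleton, both isoforms fell (-1.17 and -1.2) at a dPAS share of 98.6% to 98.8%.

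By Fisher's test in both pairs, 9.2% of all 3195 genes were lengthened and 3.22% shortened. Of 8 myogenic regulators with a pair 1 was lengthened (Mef2a), of 21 cell cycle genes 2 (Ccna2 and E2f1) and of 18 genes of 3′ end processing 1 (Rbfox2). Asph, Itgb1 and Adamts1 were the lengthened members of the calcium, fusion and synapse, and matrix lists. In the non-muscle cytoskeleton 2 of 22 were shortened (Capzb and Lmnb2), as was Slc25a4 among the energy genes. The edgeR model, which called 18.2% of all genes, called 1 of the 8 myogenic regulators, 4 of the 21 cell cycle genes, 3 of the 18 of 3′ end processing, 5 of 22 matrix genes and 4 of the 22 of the cytoskeleton. Of 3 sarcomere genes with a pair, Fisher's test called none in both pairs. The edgeR model called Tpm1 towards the pPAS (RED -0.74 ± 0.24, adjusted p = 0.00353). Its dPAS share was 96.1% and 96.9% in MB and 94.3% and 94.4% in MT. In cytoplasmic RNA the REDs of Tpm1 were 0.51 and 0.35, opposite to those of total RNA.

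In cytoplasmic RNA, 1787 of the 3195 genes had more than 5 reads of both isoforms in each of the 4 libraries, and their median RED was 0.132. Of the lengthened genes, 208 could be followed and 141 (67.8%) had a RED above 0 at both harvest times, against 38.9% of all 1787. Of the 79 shortened genes, 39 (49.4%) had a RED below 0 at both times, against 24.1% of all. The median cytoplasmic RED was 0.54 for lengthened and -0.32 for shortened genes, compared with 1.28 and -1.1 in total RNA, where these genes were chosen. No test was made on these shares.

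The poly(A) signal AATAAA was present within the 40 nt before the PAS in 48.1% of 30871 assigned PASs, and ATTAAA without it in a further 16.3%. Among the 3195 gene pairs, 60.9% of dPASs and 49.8% of pPASs had AATAAA. In lengthened genes the shares were 76.9% at the dPAS and 57.1% at the pPAS, and in shortened genes 54.4% and 45.6%. Where it occurred, AATAAA began at a median of 23 nt before the PAS. These are descriptions of the sequence, searched on the transcript strand, and do not show which signal was used. The dPAS of Aars shown above had neither hexamer in the 30 bases printed.

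PASs upstream of the last exon can mark a switch of the terminal exon. Of 1522 genes with at least 10 reads at such PASs and at last exon PASs, 1 had a changed share at an adjusted p under 0.05 (edgeR). An unadjusted p under 0.05 was reached by 530. With the library number as a block 0 genes passed, and 174 had an unadjusted p under 0.05. Without any 1 of the 4 libraries none passed, with 326 to 369 genes at an unadjusted p under 0.05. In this set 907 genes had a library with 0 listed reads of one class. With at least 50 reads of each class, 223 of 586 genes (38.1%) passed, 91 with a larger and 132 with a smaller share in MT.

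The gene called in both was Tpm1, whose tropomyosins differ in their last exons between muscle and other cells. Reads at the 2 upstream PASs shown above went from 107 and 121 in MB to 5946 and 7132 in MT, and reads of the last exon PASs from 4863 and 6347 to 1946 and 1841. The share of upstream reads thus went from 2.15% and 1.87% to 75.3% and 79.5% (log2 change of the ratio 7.39 ± 0.3, adjusted p = 0.0305). In cytoplasmic RNA the Tpm1 share was 3.39% and 5.51% in MB and 54.9% and 55.4% in MT. Both upstream PASs contain AATAAA and lie in annotated exons.

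Other large shifts, in genes named after their values were seen and called only with at least 50 reads, included a second tropomyosin gene. In Tpm3 the upstream share went from 28.2% and 22% to 95.8% and 94% (edgeR, adjusted p = 3.02e-06 with at least 50 reads and 0.0697 with at least 10). In cytoplasmic RNA the Tpm3 share was 68% and 0% in MB and 100% and 98.6% in MT. The MB shares there rest on 17 upstream and 8 last exon reads at 0 h and on 0 and 23 at 4 h. Cobl, an actin nucleator, had no upstream reads listed in MB and 79.9% and 79.8% in MT, while its last exon reads changed from 34 and 43 to 56 and 75. Obsl1, a cytoskeletal adaptor of the obscurin family, moved towards its last exon, with an upstream share of 100% and 96.6% in MB and 25.9% and 27.6% in MT. At an intronic PAS of Sdccag8, a centrosomal protein, reads fell from 806 and 1085 to 40 and 42, whereas last exon reads were 55 and 52 in MB and 59 and 81 in MT.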

How the data were processed

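The 4 total RNA and 4 cytoplasmic RNA libraries of untreated C2C12 cells were prepared by 3′READS. The submitters' processing notes name cutadapt, Bowtie2, STAR and mm9. For 3′READS the authors trimmed reads, mapped them with Bowtie2, kept well-mapped reads with untemplated T, merged neighbouring PASs (24 nt) and deposited the counts of PAS reads at each, not normalized. No file lists a PAS with fewer than 5 reads, which turns low counts into 0.

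PAS positions of all 38 3′READS libraries (99725) were joined within 24 nt into 83590 clusters and assigned to GENCODE vM1 genes on NCBIM37, up to 4000 nt past an annotated end and short of the next gene. There were 236 ambiguous clusters, which were left out. The files name no genes. Gene sums were tested with edgeR 4.0.16 (quasi-likelihood test, median-ratio factors, low counts filtered, Benjamini-Hochberg) in R 4.3.3, with DESeq2 1.42.0 as an alternative, for MT against MB without a replicate block. Fisher's exact test was two-sided, within same-numbered pairs. The pPAS and dPAS were the 2 most abundant last exon PASs of the 4 libraries, at most 10 kb apart. RED values and counts were computed with Python 3.11.

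Named genes were the 10 with the largest change in each direction at an average log2 level of at least 5, up to 4 per list with the largest change, all measured regulators as needed, the 8 largest REDs in each direction with at least 100 reads of each isoform, the genes of the isoform list, and the 5 largest changes each way of the share upstream of the last exon, where 1 gene passed. The members and lists were chosen with earlier results of these data known, and other genes of the lists are given as examples. Scripts were tested on simulated data. Precision is limited by 2 libraries per state. The 4 RNA-seq libraries of the series were not used here. A few members and a sequence are not reported here.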

Additional observations from a re-analysis of the deposited data

How the results depend on the processing

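For total RNA, the counts of higher and lower genes stayed within 1.5 times of 3407 and 3055 under TMM (3367 and 3060), the library total (2919 and 3646), DESeq2 (2545 and 2207), no filter, no extension past annotated ends, last exon PASs alone and the replicate block (3431 and 3073). Without 1 library they were 2862 to 3387 and 2561 to 2994. The 71 named gene changes, of which 69 had a value without the extension and with last exon PASs alone, kept their sign in these alternatives, and at most 2 lost significance under any of them. In cytoplasmic RNA, leaving out 1 library gave 622 to 2409 higher and 322 to 1626 lower genes, against 1367 and 998. The replicate block, there the harvest time, gave 1473 and 1121. With 1 library left out, the lone library of a state is assumed to vary like the other state.

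Same-numbered libraries hardly deviated together (r = 0.06 over genes and 0.07 over isoform ratios). Over the 5352 genes with an average log2 level of at least 5, r was 0.11. The labels do not say what a number marks. With crossed pairs in place of the replicate block of same-numbered pairs, Fisher's test called 273 lengthened and 98 shortened genes. In single pairs (without replicate 2 or 3) it called 532 to 549 and 213 to 232. A change above 10 points left 191 lengthened and 58 shortened genes, and adjusted Fisher p-values left 196 lengthened and 65 shortened genes. The median RED was 0.16 with more than 20 reads, 0.222 with at least 10 reads summed, 0.173 within 5 kb and 0.201 between the most proximal and most distal PAS, against 0.183. The RED of Qk turned to -1.78 without the extension, where another pair of sites is compared.

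The model of isoform switches called 181 genes by DESeq2 in place of 581, 683 with a replicate block, 0 with at least 10 reads summed (edgeR), where 1138 genes had an unadjusted p under 0.05, and 302 to 478 without 1 library. Shares upstream of the last exon passed in 1 gene, in 223 with at least 50 reads, and in 0 with the replicate block (edgeR, 174 genes at an unadjusted p under 0.05) or without any 1 library (326 to 369 genes). The cause was not tested. Listed reads start at 5, so that isoforms with few reads are the least certain.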

Other observations

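A number of abundant PASs that are listed in MT only lie outside the annotated genes used here. The PAS on the minus strand of chromosome 12 at position 102459920 (NCBIM37) had 0 reads in both MB libraries of total RNA and 8353 and 9222 reads, or 2533 and 2405 RPM, in MT. In cytoplasmic RNA it had 6 and 0 reads in MB and 9956 and 9470 in MT. The nearest annotated gene on its strand is a U6 snRNA 1882 nt upstream, and the nearest protein-coding gene is Kif4-ps, 72428 nt away on the other strand.

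On chromosome 1, the PAS at position 20674379 on the plus strand lies 1411 nt downstream of Mir133b and 5216 nt downstream of Mir206, a pair of muscle microRNA genes on the same strand. It had 0 reads in both MB libraries and 483 and 476 in MT. On chromosome 2, the PAS at position 180133437 lies 250 nt downstream of Mir133a-2 and 9608 nt downstream of Mir1a-1, also muscle microRNA genes, and had 0 reads in MB and 328 and 413 in MT. In cytoplasmic RNA of MT these PASs had 11 and 42 reads and 0 and 27 reads. Whether these PASs end the microRNA primary transcripts was not tested. The 3 PASs were chosen after their values were seen.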
